A study of Mus musculus with 6 samples.

Results

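The 10 genes described here encode the enzymes that carry methionine through its cycle and into the polyamines. They were taken by symbol from the 16540 genes of a table of NIH-3T3 fibroblast transcripts, and each of the 10 had 1 row. The methionine cycle is represented by Mtr, Mtrr, Mat2a, Mat2b and Ahcy, polyamine synthesis by Odc1, Amd1, Srm and Sms, and polyamine breakdown by Sat1. NIH-3T3 is an established mouse embryonic fibroblast line. All cells received lentivirus carrying Cas9 and a guide RNA and were selected with 2 ug/mL puromycin. The control group carried R26 sg1, a guide named after the Rosa26 locus (n = 2 libraries), and the other groups carried PC sg2 (n = 2) or PC sg5 (n = 2). The last 2 guides are named for pyruvate carboxylase, the enzyme encoded by Pcx. The cells were polyclonal pools, so a library mixes cells with different edits, and the share of edited cells is not analysed here. Before RNA extraction all groups spent 48 h in DMEM with 0.2 mM glutamine and 10% dialyzed serum.

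Methionine synthase regenerates methionine by moving a methyl group from folate onto homocysteine, with cobalamin as cofactor. Methionine adenosyltransferase then makes S-adenosylmethionine (SAM), the methyl donor of most methylation reactions, and the S-adenosylhomocysteine left after methylation is split to adenosine and homocysteine, which closes the cycle. A share of SAM is decarboxylated and gives its aminopropyl groups to putrescine, made from ornithine, to form spermidine and spermine. Growing fibroblasts keep polyamines high, and they are needed for hypusine, the modified lysine that activates the translation factor eIF5A.

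Values are normalised read counts, which by their values are whole reads divided by 1 factor per library. Control replicate 2 was the deepest library with 71710049 recovered reads and PC sg5 replicate 2 the shallowest with 22895172, and the 10 genes had between 985 and 24022 reads in any library. The coefficient of variation between the 2 replicates of a guide lay between 0.102% and 5.95% for these genes. Pcx, the targeted gene, was measured at 2914 and 3015 normalised counts under the control guide, at 316 and 375 under PC sg2 and at 713 and 716 under PC sg5. All 8 fibroblast markers checked were present, from 20549 normalised counts upward in the control, and they summed to 1224500 to 1274700 per control library and to 510513 to 530787 per PC library. Of 7 leukocyte and macrophage markers 5 had rows, summing to 1430 to 1539 per control library and to 876 to 932 per PC library, while Ptprc and Adgre1 are not analysed here. Adipocyte markers with rows (2 of 4) summed to 561 to 655 per control library and 331 to 431 per PC library, the muscle marker Des (1 of 4) was at 72.3 to 90.6 and at 11.7 to 26.3, and the epithelial marker Cdh1 (1 of 5) at 57.4 to 58.7 and at 8.55 to 19.1. Endothelial markers (2 of 4) overlapped, at 36.3 to 45.5 and 32.4 to 53.0. The part of these shifts in the results was not tested. Such sums weigh the most abundant markers most, with control means from 20549 to 336938 for fibroblast and 19.1 to 589 for adipocyte markers. They do not give the direction of each marker. In bulk RNA, fewer cells with a transcript and less of it per cell cannot be told apart.

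Of the 10 genes 8 rose in the PC libraries, 1 fell and 1 did not pass the test, where 67.9% of all genes were called in either direction. For both PC guides together against control, 8 of the 10 genes were higher with an adjusted p under 0.05 by limma, where 34.3% of all 16526 genes tested were called higher, and 1 was lower, where 33.6% of all genes were. The median log2 fold change of the 10 genes was 0.62, and that of all genes tested was -0.0093. The 10 genes were chosen with earlier results of these data known, so these shares describe the set and do not test it. Mtrr, Mtr and Amd1 changed at least 2-fold with an adjusted p under 0.05, 3 of 10 where 17.8% of all genes did. The 8 that rose had all 4 PC libraries above both controls and the 1 that fell had all 4 below, patterns that 36.6% of all genes showed in each direction. Adjusted p-values of these 9 genes lay between 1.02e-17 and 8.19e-08 (limma, Benjamini-Hochberg over all genes tested), and standard errors between 0.03 and 0.05.

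**Figure D1:**
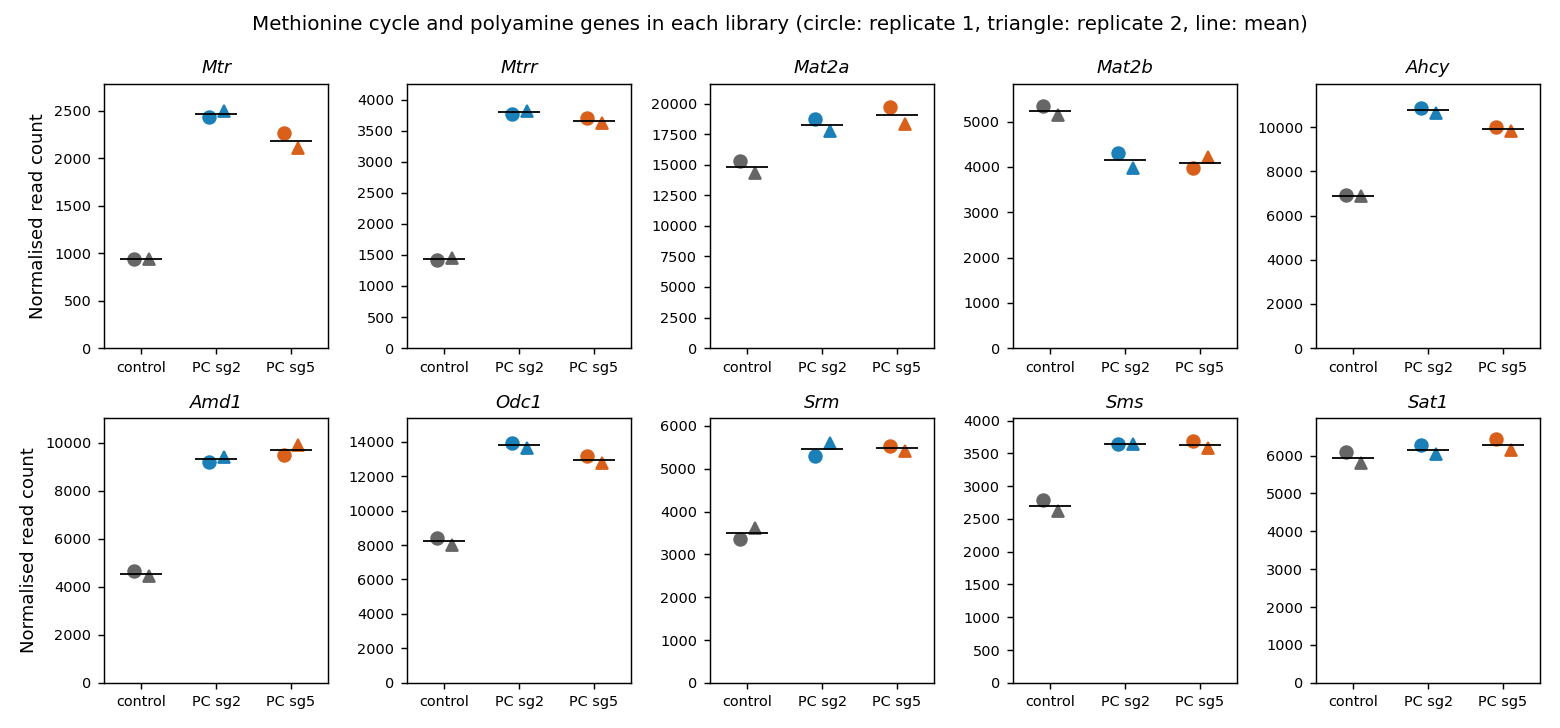
Normalised read counts (y axis, from 0) of the 10 genes in the 6 libraries, by guide (x axis), with circles for replicate 1, triangles for replicate 2 and lines for group means. All PC points of Mtr, Mtrr, Mat2a, Ahcy, Amd1, Odc1, Srm and Sms lie above both control points, those of Mat2b lie below, and those of Sat1 overlap the controls.

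Sequences directly before the annotated starts of Mtr, Amd1 and Odc1 are shown because these genes stand at the entry to the cycle and to each arm of the polyamine branch and rose together. RefSeq promoter windows of 300 bases (GRCm38.p6, 250 before to 50 after the start) matched 9 of the 10 genes by symbol, all but Srm. Each stretch below lies just upstream of the annotated start and holds no annotated exon, for which the Odc1 window was shortened to 171 bases. It is written 5′ to 3′ on the strand of the gene, with the GC box GGGCGG, or its reverse complement, in capitals.
Mtr (chr13:12258114-12258363, minus strand): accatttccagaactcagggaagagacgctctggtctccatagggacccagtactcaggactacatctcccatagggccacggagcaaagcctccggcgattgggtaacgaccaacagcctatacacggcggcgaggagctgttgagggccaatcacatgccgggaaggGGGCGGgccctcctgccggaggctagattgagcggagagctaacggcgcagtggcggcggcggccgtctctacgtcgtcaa
Amd1 (chr10:40302189-40302438, minus strand): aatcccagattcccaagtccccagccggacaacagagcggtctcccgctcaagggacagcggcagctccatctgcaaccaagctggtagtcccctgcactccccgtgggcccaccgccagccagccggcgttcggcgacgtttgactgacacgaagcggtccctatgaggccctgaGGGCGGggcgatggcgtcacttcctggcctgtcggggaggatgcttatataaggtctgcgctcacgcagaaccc
Odc1 (chr12:17544623-17544793, plus strand): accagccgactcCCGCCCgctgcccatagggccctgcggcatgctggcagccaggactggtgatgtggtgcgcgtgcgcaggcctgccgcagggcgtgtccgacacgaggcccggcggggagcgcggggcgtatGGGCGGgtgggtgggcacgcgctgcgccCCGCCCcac
Mtr and Amd1 have 1 GC box each in these stretches and Odc1 has 3. The 9 matched genes have 11 windows of 300 bases, 2 each for Mtrr and Sms. Those of Mtrr overlap, and their GC box, at -17 in 1 window and -82 in the other, is the same site counted in both. Of these 10 hold GGGCGG on either strand, including those of Mat2b and Sat1, against 60.1% of the windows of tested genes and 35.7% of all windows. The E-box CACGTG, the site bound by Myc and its relatives, was found in 1 of the 11 windows, of Sms, against 9.60% of windows of tested genes. The letters TGATGNAA, a core of the amino acid response element, were found on neither strand in any of the 11, against 2.29% of windows of tested genes. These matches describe letters in short windows and say nothing of binding.

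The pair of genes that remethylates homocysteine had the largest rises of the set. Mtr (ENSMUSG00000021311, GRCm38 chromosome 13, 12182712 to 12258113, minus strand), methionine synthase, was measured at 944 and 942 normalised counts under the control guide, at 2438 and 2504 under PC sg2 and at 2269 and 2105 under PC sg5. The lowest PC library was thus far above both controls, and the controls were nearly equal. Averaged over both guides, the log2 fold change was 1.30 ± 0.05 (SE), with an adjusted p of 9.69e-16 by limma. Mtrr (ENSMUSG00000034617, chromosome 13, 68560780 to 68582149, minus strand) encodes the reductase that restores the cobalamin of methionine synthase when it has been oxidised. Its normalised counts were 1419 and 1454 under the control guide, 3774 and 3821 under PC sg2 and 3705 and 3617 under PC sg5. Its groups did not overlap either, and its control mean of 1437 ± 24.6 (SD, n = 2) compared with 3729 ± 88.8 (SD, n = 4) over the PC libraries. That is a ratio of 2.60 and a log2 fold change of 1.38 ± 0.04 (SE, limma adjusted p = 1.02e-17).

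At the step that makes SAM, the catalytic and the regulatory subunit moved in opposite directions. Mat2a (ENSMUSG00000053907, chromosome 6, 72432799 to 72439558, minus strand), the catalytic subunit of the adenosyltransferase outside liver, was measured at 15303 and 14298 normalised counts under the control guide, at 18717 and 17753 under PC sg2 and at 19760 and 18303 under PC sg5. It rose by 0.33 ± 0.03 on the log2 scale (SE, limma adjusted p = 8.11e-09), the smallest rise among the 8. The coefficient of variation between its replicates was at most 5.41%. Exons of the noncoding gene Particl cover 11.3% of its exon bases, and reads of the 2 genes cannot be told apart there unless counting used the strand, which is not given in the sources used here. Mat2b (ENSMUSG00000042032, chromosome 11, 40679314 to 40695203, minus strand), the regulatory subunit, was at 5337 and 5146 normalised counts under the control guide. The PC sg2 libraries had 4316 and 3968 and the PC sg5 libraries 3975 and 4211, all below both controls. The log2 fold change was -0.35 ± 0.04 (SE, limma adjusted p = 8.19e-08), so 78.6% of the control mean remained. Mat2b was the member that fell.

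Ahcy (ENSMUSG00000027597, chromosome 2, 155059310 to 155074497, minus strand) encodes the hydrolase that removes S-adenosylhomocysteine, an inhibitor of methyltransferases. Its normalised counts were 6914 and 6868 under the control guide, 10889 and 10645 under PC sg2 and 10005 and 9820 under PC sg5. The lowest PC library stood well above both controls, and the means were 6891 ± 32.6 (SD, n = 2) and 10340 ± 509 (SD, n = 4), a log2 fold change of 0.58 ± 0.03 (SE). Of the 50-base words in its transcripts, 68.7% also occur in transcripts of other annotated genes, most often the copy Gm4737, so its count is uncertain to the extent that the counting split reads between copies.

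All 4 genes of polyamine synthesis rose. Odc1 (ENSMUSG00000011179, chromosome 12, 17544794 to 17551505, plus strand), ornithine decarboxylase, makes putrescine and is the short-lived, tightly controlled entry enzyme. It was measured at 8385 and 8023 normalised counts under the control guide, at 13916 and 13655 under PC sg2 and at 13152 and 12765 under PC sg5, a log2 fold change of 0.70 ± 0.03 (SE, limma adjusted p = 1.99e-15). Amd1 (ENSMUSG00000075232, chromosome 10, 40287458 to 40302186, minus strand), the decarboxylase that commits SAM to polyamines, was measured at 4650 and 4431 under the control guide, at 9210 and 9423 under PC sg2 and at 9490 and 9927 under PC sg5. With a ratio of 2.09 it had the largest rise of the polyamine genes, a log2 fold change of 1.07 ± 0.03 (SE). Amd1 shares 78.1% of its 50-base words with other genes, above all the copy Amd2, and Odc1 shares 24.3%, so both counts carry the same uncertainty as that of Ahcy. Amd2 itself was listed at 32.8 and 27.6 normalised counts under the control guide and at 67.0 to 129 under the PC guides, so even its highest library was far under the lowest of Amd1. Amd2 shares 85.7% of its own 50-base words with other genes, above all Amd1. Its low count therefore does not show how little it adds to that of Amd1.

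Both aminopropyl transferases were higher in all PC libraries. Srm (ENSMUSG00000006442, chromosome 4, 148591503 to 148594993, plus strand), spermidine synthase, was measured at 3361 and 3617 normalised counts under the control guide, at 5305 and 5608 under PC sg2 and at 5524 and 5425 under PC sg5. Its log2 fold change was 0.65 ± 0.04 (SE). Sms (ENSMUSG00000071708, chromosome X, 157443855 to 157492287, minus strand), spermine synthase, was at 2781 and 2624 under the control guide and at 3578 to 3681 under the PC guides. It rose by 0.43 ± 0.04 on the log2 scale (SE, limma adjusted p = 2.51e-09), with 17.5% of its 50-base words shared with other genes.

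Sat1 (ENSMUSG00000025283, chromosome X, 155213132 to 155216449, minus strand), the acetyltransferase that starts polyamine breakdown and export, did not pass the test. It was measured at 6086 and 5805 normalised counts under the control guide, at 6271 and 6030 under PC sg2 and at 6434 and 6135 under PC sg5, so the groups overlapped. The log2 fold change was 0.06, with a 95% interval of -0.01 to 0.14 and a limma adjusted p of 0.101. The interval leaves room for a small rise. Rescaling without the 50 most abundant genes (0.11, limma adjusted p = 0.00676) or leaving out PC sg5 replicate 2 (0.08, limma adjusted p = 0.0426) put it past the threshold, within a range of adjusted p from 0.00676 to 0.585 over 17 alternatives.

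Each guide alone gave the same calls in the fit reported here. With PC sg2 against control 8 of the 10 genes rose and 1 fell, where 32.9% and 31.6% of all genes were called higher and lower. With PC sg5 the counts were also 8 and 1, against 32.6% and 31.8%. In either direction 64.5% of all genes were called with each guide. Both comparisons share the 2 control libraries. Mtrr had log2 fold changes of 1.40 with PC sg2 and 1.35 with PC sg5, Amd1 of 1.04 and 1.10, Odc1 of 0.75 and 0.66, and Mat2b of -0.34 and -0.36. Sat1 had 0.05 with PC sg2 and 0.08 with PC sg5 (limma adjusted p = 0.0823 for PC sg5). In 3 of 18 alternatives it passed for PC sg5, namely rescaled without the 50 most abundant genes (0.13, limma adjusted p = 0.00576), without PC sg5 replicate 2 (0.11, limma adjusted p = 0.0348) and with a replicate block (0.08, limma adjusted p = 0.0442).

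**Figure D2:**
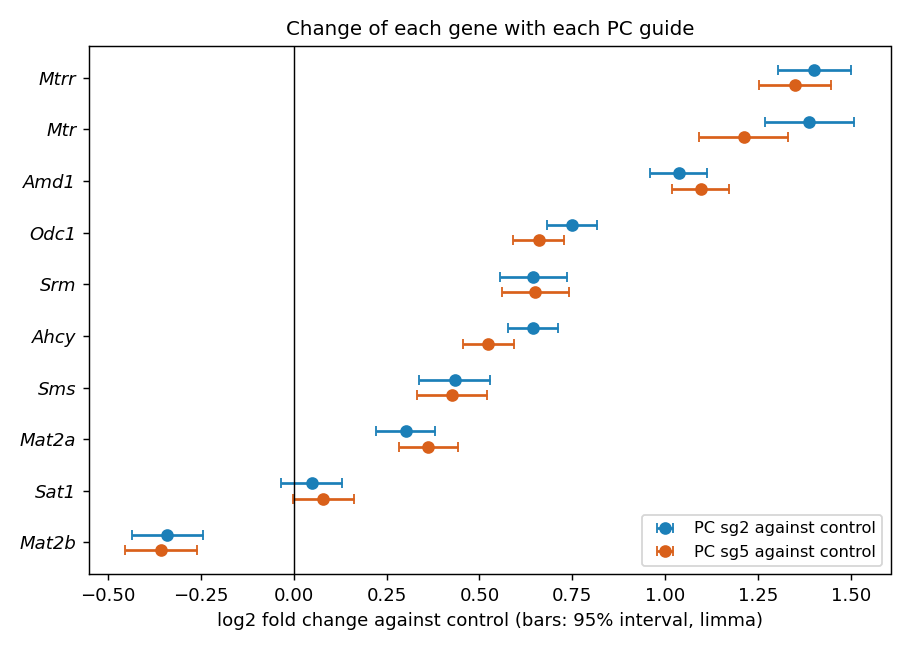
Log2 fold change against control (x axis) of each gene (y axis) with PC sg2 (blue) and PC sg5 (orange), with 95% intervals from limma. Intervals of both guides lie above 0 for the 8 genes that rose and below 0 for Mat2b, and those of Sat1 include 0.

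The direct test of PC sg5 against PC sg2 called none of the 10 genes. By limma 0 of 10 had an adjusted p under 0.05, and 3 had an unadjusted p under 0.05, as did 1760 of all 16526 genes tested. At the adjusted threshold 0.242% of all genes were called, a background count of 40. With 1 library left out it ran from 10 (without PC sg2 replicate 2) to 218 (without PC sg5 replicate 1), and without the intensity trend it was 0. The 3 genes were lower with PC sg5. Mtr differed by -0.18 (95% interval -0.30 to -0.06, limma adjusted p = 0.264), Ahcy by -0.12 (-0.19 to -0.05, limma adjusted p = 0.147) and Odc1 by -0.09 (-0.16 to -0.02, limma adjusted p = 0.302), on the log2 scale. EdgeR's quasi-likelihood test on recovered reads also called 0 of the 10. DESeq2 gave an adjusted p only for Ahcy, Amd1, Mat2a and Odc1 among them, and called 1, Ahcy (-0.12, adjusted p = 0.0233). The adjusted p of Ahcy ranged from 0.0233 to 0.643 over 18 alternatives. Replicates of the guides did not overlap for Mtr, Mtrr, Ahcy and Odc1, lower with PC sg5, and Amd1, higher with PC sg5, patterns shown by 20.8% and 18.4% of all genes. For the other 7 genes the 95% intervals of the difference lay between -0.15 and 0.14. Pcx itself was higher with PC sg5 than with PC sg2 by 1.05 ± 0.08 (SE) on the log2 scale (limma adjusted p = 6.6e-07). It did not pass in 1 of 17 alternatives, without the intensity trend (limma adjusted p = 0.328).

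Ratios between partner genes, which are free of size factors, show how unequal the changes were. The log2 ratio of Odc1 to Oaz1, the antizyme that targets ornithine decarboxylase for degradation, was -0.89 and -0.98 in the controls. The PC sg2 libraries stood at 0.11 and 0.04 and the PC sg5 libraries at -0.10 and -0.15. The PC libraries exceeded the controls by 0.91. For Mat2a to Mat2b the log2 ratio was 1.52 and 1.47 under the control guide and 2.12 to 2.31 under the PC guides, a difference of 0.68. Srm to Sms differed by 0.22, a value that dropped to 0.12 without control replicate 1. In these 3 pairs all 4 PC libraries lay above both controls (exact two-sided permutation test, p = 0.133 each and 0.177 after Benjamini-Hochberg adjustment over 4 ratios, where 0.133 is the smallest p that 4 against 2 libraries allow). Mtr to Mtrr differed by -0.07 with overlapping groups (exact two-sided permutation test, p = 0.267).

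**Figure D3:**
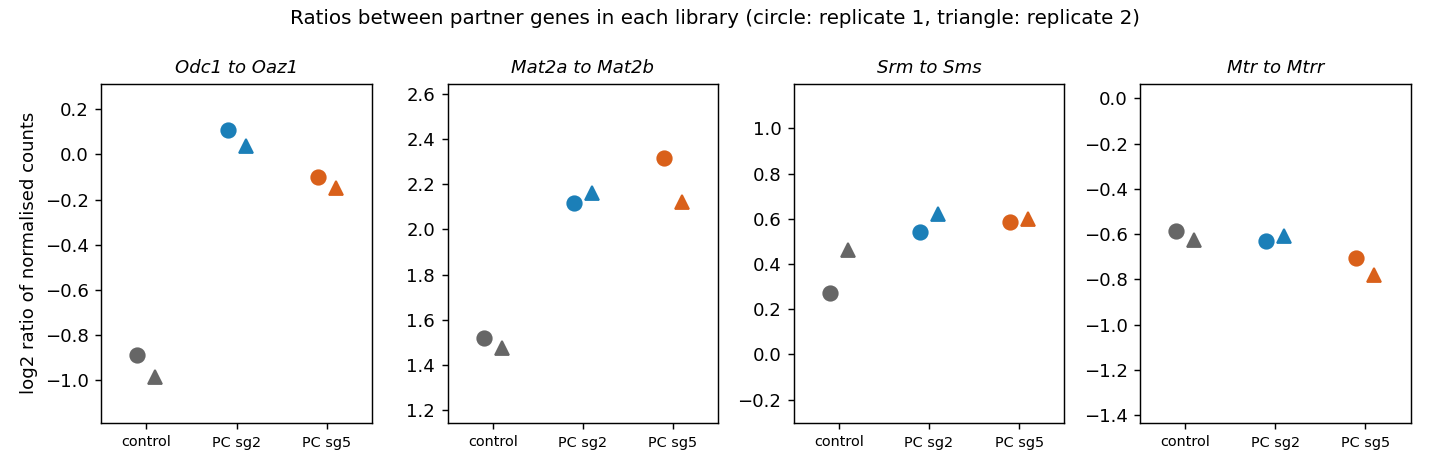
Log2 ratio of the normalised counts of 2 genes (y axis, same span in each panel) in each library by guide (x axis). The ratio of Odc1 to Oaz1 stands 0.91 higher in the PC libraries than in the controls and that of Mat2a to Mat2b 0.68 higher, while Mtr to Mtrr overlaps between groups.

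Levels per kilobase of annotated exon put the 10 genes on 1 scale, with the caveat that all annotated exons count towards the length. The uncertainty from 50-base words shared with other genes, largest for Amd1 (78.1%) and Ahcy (68.7%), applies to this order too. In the control Mat2a was highest at 3299 normalised counts per kb, followed by Ahcy (2457), Odc1 (2409), Srm (2182), Sat1 (2143), Amd1 (1282), Mat2b (1048), Sms (450), Mtrr (276) and Mtr (111). Ahcy and Odc1, and Srm and Sat1, differed by less than the sum of their SDs. In the PC libraries Mat2a stayed first at 4154 per kb, ahead of Odc1 at 3927 and Ahcy at 3686, and each of these neighbours differed by less than the sum of their SDs. Amd1 (2686) now stood above Sat1 (2241), and Mtrr (717) above Sms (605). Mtr remained last at 273 per kb, with a level per kb at percentile 38.9 of all tested genes in the control and 55.3 in the PC libraries.

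Genes around these steps moved in both directions for both guides against control. The counts in each list stand against 34.3% of all genes called higher, 33.6% called lower and a median of -0.0093, and several lie near those shares. The lists too were chosen with earlier results of these data known, so these shares do not test them. Listed genes without a row, such as Bhmt, Cbs and Mat1a, are not analysed here. Of 6 amino acid transporters that carry methionine or its exchange partners 3 rose and 3 fell (median 0.23), with Slc38a1 at 1.35, the exchanger subunits Slc7a5 at 0.88 and Slc3a2 at 0.65, and Slc43a2 at -1.40. Of 6 genes of remethylation and cobalamin supply 2 rose, 1 fell and 3 did not pass (median 0.03). The cobalamin exporter of lysosomes Abcd4 had -0.82, the cobalamin processing gene Mmachc 0.50 and the cobalamin receptor Cd320 0.16. Lmbrd1, the partner of Abcd4 in lysosomal export, had 0.08 and did not pass (limma adjusted p = 0.0825). Without PC sg5 replicate 2 the list had 3 genes higher and 2 lower.

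Among 6 other genes of SAM and S-adenosylhomocysteine handling 3 rose, 2 fell and 1 did not pass (median 0.17). Mettl16, the RNA methyltransferase that controls Mat2a splicing in response to SAM, rose by 0.81, and Ahcyl2, a relative of Ahcy, by 1.29. Adenosine kinase, Adk, which removes the other product of the Ahcy reaction, fell by 0.72, and Bmt2, the SAM sensor of mTORC1 signalling, by 0.26. Of 9 methyltransferases, of small molecules but for the prenyl-protein enzyme Icmt, 3 rose, 1 fell and 5 did not pass (median 0.12). The coenzyme Q enzymes Coq5 and Coq3 had log2 fold changes of 1.06 and 0.55 and the prenyl-protein methyltransferase Icmt 0.36. Gamt, which makes creatine, was at 897 and 923 normalised counts under the control guide and at 199.9 to 265 under the PC guides, a log2 fold change of -2.03 ± 0.11 (SE).

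Methionine salvage recycles the methylthioadenosine left by spermidine and spermine synthesis, and 3 of its 5 genes rose while 2 did not pass (median 0.17). Adi1 and Enoph1 rose by 0.85 and 0.73, Mri1 by 0.17, and Mtap, the first enzyme, had 0.03 without passing. In transsulfuration and sulfide oxidation 2 of 7 genes rose, 4 fell and 1 did not pass (median -0.22). Cth, which makes cysteine from cystathionine, rose by 0.57. Cdo1, which oxidises cysteine, fell from a mean of 625 to 156 normalised counts (log2 fold change -2.02 ± 0.13, SE), and Mpst and Sqor had -0.38 and -0.22.

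Regulators of ornithine decarboxylase did not move as a block. Among 5 antizymes and antizyme inhibitors 1 rose, 3 fell and 1 did not pass (median -0.21). Azin1, an inhibitor of antizyme, was at 5318 and 5160 normalised counts under the control guide and at 8774 to 9443 under the PC guides, a rise of 0.80 ± 0.03 (SE). The antizyme Oaz1 was at 15519 and 15856 under the control guide and at 12916 to 14144 under the PC guides, a log2 fold change of -0.21 ± 0.03 (SE), and Oaz2 had -0.66 ± 0.04. Azin2, the other inhibitor, went from a mean of 1368 to 441 (log2 fold change -1.64 ± 0.09, SE). Oaz3 was listed at 21.6 in the control, with 55.8% of its exon bases shared with other genes, and its log2 fold change of 0.21 did not pass. In the list for ornithine supply, which includes Azin2, 2 of 4 genes rose and 2 fell (median -0.23). Oat, which links ornithine to glutamate and proline, fell by 1.01. Arg1 had only 12.7 and 18.1 normalised counts under the control guide and 42.8 to 89.3 under the PC guides, and Arg2, with 28.1% of its exon bases shared with other genes, rose by 0.55. The fourth gene is Azin2, counted in both lists though it is described above as an antizyme inhibitor. Without it Arg1 and Arg2 rose and Oat alone fell, so the negative median rests on Azin2.

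Polyamine breakdown genes other than Sat1 split, with 1 of 3 higher and 2 lower (median -0.23). Spermine oxidase, Smox, rose by 0.77, while Sat2 and Paox fell by 1.05 and 0.23. In polyamine transport 4 genes were tested, but Atp13a4 reached the filter on low values through the PC libraries alone, so its call is no support. It was covered by 3 and 1 reads under the control guide and by 41.5 to 54.5 normalised counts under the PC guides. Of the other 3 genes 2 rose and 1 fell (median 0.16). The lysosomal exporter Atp13a2 fell by 0.58 and its relative Atp13a3 rose by 0.39. Slc18b1 rose by 0.16. All 4 genes of hypusine formation rose (median 0.46), where 34.3% of all genes were called higher. Eif5a, the substrate, went from 33242 and 33076 normalised counts under the control guide to between 56702 and 57176 under the PC guides (0.78 ± 0.02, SE). Dohh, Eif5a2 and Dhps rose by 0.47, 0.45 and 0.14, with 47.5% of the exon bases of Dohh shared with Gm48551. Every rise and fall named in these lists had a limma adjusted p under 0.05, the largest being 0.0392 for Slc18b1. The calls of Cd320, Mri1, Slc18b1, Dhps, Paox and Arg2 were lost in 6, 6, 6, 5, 7 and 3 of 17 alternatives. Leaving out control replicate 1 ended the calls of Cd320, Mri1, Slc18b1, Paox and Arg2 (limma adjusted p between 0.0993 and 0.182). Without control replicate 2 those of Cd320, Mri1, Slc18b1, Paox and Dhps were lost (0.099 to 0.255). The calls of Cd320, Slc18b1, Dhps and Arg2 were lost without PC sg2 replicate 1 (0.0512 to 0.123), and those of Cd320, Mri1, Slc18b1 and Paox without PC sg2 replicate 2 (0.057 to 0.169). Without PC sg5 replicate 1 Cd320, Mri1 and Slc18b1 no longer passed (0.0592 to 0.092), nor did Dhps and Paox without PC sg5 replicate 2 (0.069 and 0.0512, all limma adjusted p). Of genes that are counted but not described, Tst, Slc43a1, Slc25a26 and Ethe1 also lost their calls, in 5, 2, 1 and 1 of 17 alternatives, and they are named after their values were seen. These included leaving out control replicate 1 for Tst, Slc43a1 and Slc25a26 (limma adjusted p between 0.0583 and 0.154), control replicate 2 for Tst and Ethe1 (0.135 and 0.159), and PC sg2 replicate 1 or PC sg5 replicate 2 for Tst (0.0533 and 0.0517). Mtap and Lmbrd1 passed when rescaled without the 50 most abundant genes (limma adjusted p = 0.0373 and 0.00868), and Lmbrd1 also without PC sg5 replicate 2 (log2 fold change 0.11). Of genes counted as not passing but not described, Nnmt, Tcn2, Ahcyl1 and Tpmt passed in 3, 2, 2 and 1 of 17 alternatives. These included quantile normalisation for Ahcyl1 and Tpmt (limma adjusted p = 6.97e-05 and 0.0309) and a replicate block for Nnmt (limma adjusted p = 0.0326). They too are named after their values were seen.

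**Figure D4:**
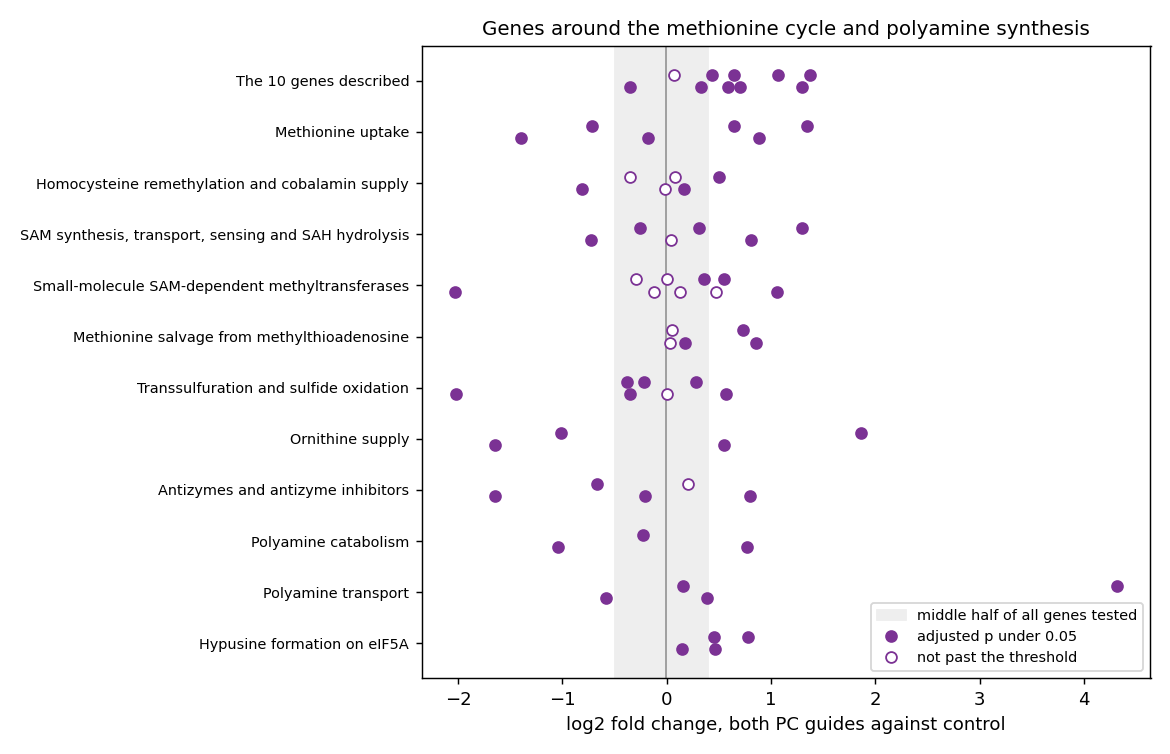
Log2 fold change of both PC guides against control (x axis) for each tested gene of the lists (y axis), filled where the adjusted p was under 0.05, with the interquartile range of all genes tested shaded and their median as a line. Of the 10 genes described Mtr, Mtrr and Amd1 lie farthest to the right and Mat2b to the left of 0, the genes of hypusine formation and methionine salvage lie to the right of 0, and the other lists spread to both sides, the rightmost point being Atp13a4.

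Genes whose 6 values, each taken relative to its own control mean, lay nearest to those of Mtrr were Noc3l, Naf1 and Ern1, with root-mean-square distances of 0.03, 0.03 and 0.04 on the log2 scale over 6 libraries. They had log2 fold changes of 1.38, 1.36 and 1.40. In all, 63 of 12920 genes compared lay within a distance of 0.1 of Mtrr. The nearest to Mat2b were Pxk, Limch1 and Ppic, at distances of 0.02, 0.03 and 0.03, with log2 fold changes of -0.37, -0.34 and -0.33, and 747 genes lay within the same distance. These distances describe likeness over few libraries and carry no test.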

How the data were processed

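The 6 libraries of poly-A selected RNA were made with NEBNext Ultra reagents, per the labels' protocols. Per the submitters' processing notes the tools were bcl2fastq 2.17, Trimmomatic, STAR, featureCounts and DESeq2, on GRCm38. Their settings, the annotation and any use of strand in counting were not given in the sources used here. Values as deposited are a signal, normalised counts, and the numbers themselves show whole reads divided by 1 factor per library. In each library 100% of values above 0 were whole multiples of 1 step (tolerance 0.01), so whole reads were recovered for the edgeR 4.0.16 and DESeq2 1.42.0 alternatives. EdgeR called 11424 genes for both guides against control and limma 11222.

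Symbols came from GENCODE M21 (GRCm38), which matched 16491 identifiers, while 49 had none. Differences were fitted by limma 3.58.1 (R 4.3.3) to log2(normalised count + 1), which understates changes of low genes. The model held all 3 groups, an intensity trend and the 16526 genes that reached 10 normalised counts in 2 or more libraries. The pipeline was tested on simulated data in which few genes changed, so that test does not cover data in which most genes move, as here. P-values were two-sided and adjusted by Benjamini-Hochberg over all genes tested, and 0.05 was the threshold. Alternatives covered the pseudocount, filter, scaling, tool, trend, replicate number and each library left out. The labels do not say whether replicates are separate cultures, and the p-values then cover only the spread among these libraries, which may be technical. The 3-read floor was 2.18 to 6.41 normalised counts and covers counting error only.

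The 10 genes and the lists around them were chosen with earlier results of these data known. Values are given for list genes that met the naming rule, and 1 further gene was taken out of a list and is not reported here. Named genes were the 10, Pcx, the up to 4 tested genes of each list with the smallest p for both guides against control, all antizymes and their inhibitors, and the 3 genes nearest to the members with the highest and lowest fold change.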

Additional observations from a re-analysis of the deposited data

How the results depend on the processing

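For both PC guides against control, each of the 9 called genes of the set kept its direction and its side of the threshold in all 17 alternatives, with Mtrr between 1.36 and 1.42, Amd1 between 1.03 and 1.11, and Mat2b between -0.38 and -0.30 on the log2 scale. Among the alternatives the median of all genes moved by under 0.1. The count of genes that differed between PC sg5 and PC sg2, 40 as reported, was 65 with a pseudocount of 8, 65 when a gene's mean had to reach 50 normalised counts, 68 with edgeR and 91 with DESeq2, which adjusted over 1468 genes. Without the intensity trend limma called 0 genes, with 1241 at an unadjusted p under 0.05. The count was 26 without control replicate 1 or 2, 14 without PC sg2 replicate 1, 10 without PC sg2 replicate 2 and 218 without PC sg5 replicate 1. In that comparison DESeq2 called 1 of the 10 genes, Ahcy, and gave no adjusted p for Mtr, Mtrr, Mat2b, Srm, Sms and Sat1. Limma and edgeR called 0 of the 10. The cause of these differences was not tested. Over 12921 genes, deviations of same-numbered replicates correlated at 0.0269, 0.0161 and 0.0154, too little to take the numbers as pairs. Of the 10 genes, however, 5 had replicate 1 above replicate 2 in all 3 groups, against 13.8% of genes tested, and Sat1, among them, was above control within each same-numbered pair. A replicate block raised the count between the guides to 160 and put Sat1 past the threshold for PC sg5 (0.08, limma adjusted p = 0.0442). Depth limits the low genes most, such as Arg1, Oaz3 and Atp13a4.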
